A study of Mus musculus with 25 samples.

Results

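Chromatin accessibility of CD8+ T cells was compared between female mice after a first pregnancy and female mice that were never mated. The cells were fetus/graft-specific (T_FGS), that is, they bound a tetramer of Kb and a peptide of OVA, which the fathers carry as a transgene. The comparison rests on 6 of the 25 libraries of the series: 3 of N+P C5 and 3 of Naive. N+P C5 are the PD1+CD73+ T_FGS of Naive+Pregnant mice, sorted within days of delivery, and Naive are T_FGS of mice with neither graft nor pregnancy. Members were chosen by their labels alone, and all 13527 peaks of the series were measured in each library.

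All groups were adult C57BL/6 (B6) females, and cells came from spleen and lymph nodes. The N+P mice had been mated with 2W-OVA.BALB/c males, which express the 2W-OVA transgene throughout the body, so that the fetus carries OVA beside the paternal transplantation antigens. Only part of the F1 offspring of such a mating inherits the transgene. T_FGS are the endogenous polyclonal cells of each mouse, and the labels do not say whether each library came from a mouse of its own, so p-values measure the spread between these libraries, which may be technical. Levels in N+P C1, the PD1- cells of N+P mice (3 libraries), in Sensitized mice that had rejected a paternal skin graft, and in S+P C5, the PD1+CD73+ cells of mice with a graft and then a pregnancy (4 libraries each), are given where they show where N+P C5 lies.

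ATAC-seq marks open chromatin, since a transposase inserts sequencing adapters where nucleosomes leave the DNA free, and reads pile up at promoters and enhancers. A naive CD8+ T cell keeps open the enhancers of quiescence and lymph node homing genes such as Tcf7 and Ccr7. On activation it opens enhancers of effector genes, and with lasting antigen those of inhibitory receptors such as PD1 (gene Pdcd1), many of which hold sites for AP-1 and NFAT. CD73 (gene Nt5e), the ectoenzyme that makes adenosine, and PD1 were the markers of the sort, so their own loci are not independent of how N+P C5 cells were chosen.

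Naive libraries held 5974632, 8252478 and 13165657 counts in peaks, and N+P C5 libraries 8197552, 6122299 and 7040324. Naive replicate 3 stood apart from the other Naive libraries. Across peaks, which are not independent replicates, its log2 counts correlated with those of replicates 1 and 2 at r = 0.966 and 0.965, against 0.983 between the latter. Chromosome 11 took 5.39% of the counts in Naive replicates 1 and 2 each, 4.48% in replicate 3, and 4.29% to 4.63% in N+P C5. Counts of peaks are therefore given with and without Naive replicate 3, and so are several single peaks whose call it changes. Its part in the results was not tested beyond that. Of the marker lists of other cells, none of the B cell or myeloid genes had a promoter peak. The 12 promoter peaks of T cell and CD8 genes summed to 4109 to 4159 normalized counts in N+P C5 and 4189 to 4959 in Naive. Of these, 1 near Lck passed the test as lower, and 4 were lower without Naive replicate 3. Of the 3 promoter peaks of CD4 and regulatory T cell genes, that of Ikzf2 was higher and that of Il2ra lower. The 2 promoter peaks of NK genes, near Nkg7 and Eomes, summed to 1324 to 1549 in Naive and 1598 to 1692 in N+P C5, and neither passed the test with all 6 libraries. That of Nkg7 passed as higher without Naive replicate 3. Once the median of each 10 Mb stretch was removed per library, 1 of the 2 was higher. Their part in the results was not tested. The Cd8a promoter peak was present, and Ncr1 and Klrb1c, which define NK cells, had none. The T cell genes Cd8b1, Thy1 and Cd2 had none either, so a missing peak does not show that a cell type was absent.

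In N+P C5 against Naive, 1646 of 13527 peaks passed an adjusted p under 0.1 (12.2%), 780 of them higher (5.77%) and 866 lower (6.4%) in N+P C5. Most of these shifts were small, with a median log2 fold change of 0.39 for the higher and -0.49 for the lower peaks. With the added threshold of an absolute log2 fold change over 0.9, 56 peaks opened (0.414%) and 9 closed (0.0665%), 65 in all (0.481%). These are fits of DESeq2 to the 6 libraries with Benjamini-Hochberg adjustment over all peaks. A peak is named by the protein-coding gene whose start lies nearest, which does not show that it acts on that gene. More cells with an open site and a wider opening in each cell cannot be told apart in bulk libraries.

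The number of calls turned on single Naive libraries. Without Naive replicate 3, 4996 peaks passed the adjusted p (36.9%), and 120 opened and 85 closed (205 in all, 1.52%). Without Naive replicate 1 or Naive replicate 2, 8 peaks passed in each fit, of which 4 opened and 1 closed. Leaving out N+P C5 replicate 1, 2 or 3 left 344, 199 and 431 peaks past the adjusted p. Calls then numbered 2, 30 and 46. Without N+P C5 replicate 2 there were 15 opening and 15 closing peaks, and without replicate 3 there were 17 and 29, so the excess of opening over closing peaks did not hold. Without replicate 1 the independent filter left all 56 opening peaks with no adjusted p, and with the filter off there were 15 opening and 11 closing peaks. Offsets from a loess curve over the level, with no filter, gave 21 opening and 20 closing peaks, and 21 of the 56 were still called. With all 25 libraries in 1 fit, 301 of the 3824 peaks that kept an adjusted p passed (7.87%), 253 higher and 48 lower, and 1 was called.

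**Figure D1:**
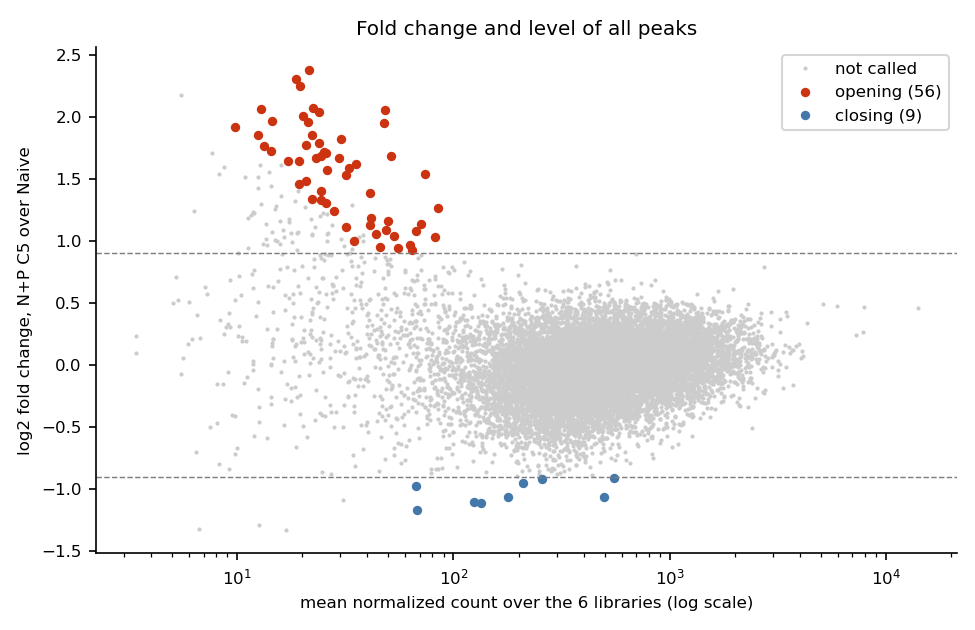
Log2 fold change of N+P C5 over Naive (vertical axis) against the mean normalized count over the 6 libraries (horizontal axis, log scale), 1 point per peak, with dashed lines at the fold threshold of 0.9. The 56 opening peaks (red) all lie under a mean of 100, as do 2 of the 9 closing peaks (blue).

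The sequences of 6 called peaks carry the comparison at genes with a known part in T cell biology: the 4 opening and 2 closing peaks with the smallest adjusted p among those near a listed gene. Cd47 encodes the "do not eat me" ligand, Cd44 the hyaluronan receptor of activated and memory T cells, Jak2 a kinase of cytokine receptors, and Stat4 the factor downstream of IL-12. Ccr7 encodes the lymph node homing receptor, and Il21r the receptor of IL-21. Shown are the central 300 bases of each peak on the plus strand of GRCm39. Capitals mark matches on either strand to AP-1 (TGANTCA), RUNX (TGTGGTT), ETS (CCGGAAG), T-box (GGTGTGA), TCF/LEF (CTTTGAA), NFAT (TGGAAA), NR4A (AAGGTCA) and KLF/SP (GGGCGGG).
Cd47 chr16:49756761-49757060: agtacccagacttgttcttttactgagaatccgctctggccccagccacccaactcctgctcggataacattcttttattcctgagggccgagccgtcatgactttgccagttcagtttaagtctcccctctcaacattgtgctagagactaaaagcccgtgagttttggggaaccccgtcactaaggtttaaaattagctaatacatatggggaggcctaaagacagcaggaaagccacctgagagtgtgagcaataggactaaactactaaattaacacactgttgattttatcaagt
Cd44 chr2:102787141-102787440: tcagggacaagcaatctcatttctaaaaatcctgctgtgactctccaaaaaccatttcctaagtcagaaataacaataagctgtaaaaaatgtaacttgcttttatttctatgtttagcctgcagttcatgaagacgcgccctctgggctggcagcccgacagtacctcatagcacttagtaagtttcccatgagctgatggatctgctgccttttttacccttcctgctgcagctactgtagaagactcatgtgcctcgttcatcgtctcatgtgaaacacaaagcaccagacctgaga
Jak2 chr19:29248519-29248818: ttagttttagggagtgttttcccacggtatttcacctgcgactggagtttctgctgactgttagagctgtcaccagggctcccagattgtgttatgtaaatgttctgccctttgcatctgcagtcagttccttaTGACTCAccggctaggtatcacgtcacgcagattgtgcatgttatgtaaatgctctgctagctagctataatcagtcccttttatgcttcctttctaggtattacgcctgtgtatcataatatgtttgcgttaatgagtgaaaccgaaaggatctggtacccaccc
Stat4 chr1:52079638-52079937: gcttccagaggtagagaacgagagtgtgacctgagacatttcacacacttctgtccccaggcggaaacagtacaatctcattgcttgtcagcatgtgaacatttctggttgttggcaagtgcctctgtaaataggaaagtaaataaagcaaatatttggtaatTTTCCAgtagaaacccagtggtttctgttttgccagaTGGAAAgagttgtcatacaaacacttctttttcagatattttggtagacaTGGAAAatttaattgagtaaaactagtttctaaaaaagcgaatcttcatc
Ccr7 chr11:99058991-99059290: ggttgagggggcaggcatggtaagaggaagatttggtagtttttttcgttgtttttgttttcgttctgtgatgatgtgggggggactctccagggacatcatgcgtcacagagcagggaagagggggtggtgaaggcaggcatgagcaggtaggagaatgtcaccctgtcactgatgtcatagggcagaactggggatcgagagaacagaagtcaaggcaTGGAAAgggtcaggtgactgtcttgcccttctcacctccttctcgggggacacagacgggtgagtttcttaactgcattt
Il21r chr7:125196243-125196542: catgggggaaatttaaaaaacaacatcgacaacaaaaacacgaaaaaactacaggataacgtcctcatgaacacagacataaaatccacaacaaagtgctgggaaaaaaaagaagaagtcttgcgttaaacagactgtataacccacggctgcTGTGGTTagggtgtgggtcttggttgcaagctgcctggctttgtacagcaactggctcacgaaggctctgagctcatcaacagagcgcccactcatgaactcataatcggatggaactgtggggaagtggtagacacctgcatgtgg
The Jak2 window held 1 AP-1 match, the Stat4 window 3 NFAT matches, the Ccr7 window 1 NFAT match and the Il21r window 1 RUNX match. The Cd47 and Cd44 windows held none of the 8 motifs.

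Opening peaks lay away from promoters and at low levels. Of the 56, 30 were intronic, 21 intergenic and 3 exonic, and 2 (3.57%, Wilson 95% interval 0.985 to 12.1) lay within 1000 bp of a protein-coding transcript start, against 56.7% of all peaks. Their median distance to the start of the named gene was 43472 bp, against 1595.5 bp over all peaks, and their median GC content was 44.8% against 54.4%. Their median normalized count was 25.9, against 449.8 over all peaks. The 784 peaks with a mean under 100 were much alike in position, with 6.38% at promoters, 53.3% intronic, a median distance of 33656.5 bp and a median GC content of 46.8%. None of the 56 was in the peak list that the authors made for Naive or for N+P C5. All 784 low peaks were likewise absent from both lists, and their median log2 fold change was 0.20.

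Among the opening peaks near T cell genes, the Cd44 peak at chr2:102786775-102787805, intergenic and 55280 bp from the start, held 22.2, 26.0 and 24.8 normalized counts in Naive replicates 1 to 3 and 48.4, 82.3 and 106 in N+P C5. The lowest N+P C5 library lay above every Naive library, and the log2 fold change was 1.69 (SE 0.37) with an adjusted p of 0.00345, or 6.0e-04 without Naive replicate 3. The Cd47 peak at chr16:49755903-49757917, intergenic and 136010 bp from the start, held 52.1, 39.0 and 57.2 in Naive and 107, 114 and 138 in N+P C5. Its log2 fold change was 1.27 (SE 0.27) with an adjusted p of 0.00262. It was 1 of 18 peaks named for Cd47, of which 3 were higher and none lower. The intronic Jak2 peak at chr19:29248345-29248991, the only peak of that gene, held 15.6, 14.9 and 20.7 in Naive and 39.8, 66.9 and 53.8 in N+P C5, which gave a log2 fold change of 1.62 (SE 0.41) with an adjusted p of 0.0102. In an intron of Stat4, the peak at chr1:52079329-52080245 held 15.6, 14.9 and 18.3 in Naive and 36.0, 46.3 and 60.5 in N+P C5, which gave a log2 fold change of 1.53 (SE 0.43) with an adjusted p of 0.0185. None of these peaks overlapped between the groups.

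Il10, which encodes an immunoregulatory cytokine, had 2 opening peaks. The intergenic one at chr1:130930748-130931544 held 14.3, 1.86 and 10.03 in Naive and 44.6, 38.6 and 24.6 in N+P C5, which gave a log2 fold change of 2.07 (SE 0.58) with an adjusted p of 0.0199. The intronic one at chr1:130949223-130951143 held 26.1, 27.9 and 48.4 in Naive and 71.2, 74.6 and 70.6 in N+P C5, with a log2 fold change of 1.04 (SE 0.34) and an adjusted p of 0.0448. Naive replicate 3 was the highest Naive library in the second but not in the first, and in both the groups stood apart. The Il10 peaks were singled out after their values were seen. Pdcd1, which encodes PD1, had an opening peak at chr1:94002326-94003130, 22416 bp from the start. It held 33.9, 28.8 and 15.9 in Naive and 37.9, 66.9 and 63.8 in N+P C5, which gave a log2 fold change of 1.13 (SE 0.41) with an adjusted p of 0.0655. Without Naive replicate 3, which was the lowest Naive library there, the adjusted p was 0.113.

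The opening peak with the smallest adjusted p was intergenic at chr3:37792388-37793055 near Gm5148, a predicted gene. It rose from 15.6, 16.7 and 22.4 in Naive to 74.9, 91.3 and 67.2 in N+P C5, which gave a log2 fold change of 2.06 (SE 0.36) with an adjusted p of 8.4e-05. At chr6:50370817-50371831, the peak near Osbpl3, an oxysterol-binding protein gene, rose from 18.3, 20.4 and 20.1 to 70.2, 70.7 and 87.4, with a log2 fold change of 1.95 (SE 0.35) and an adjusted p of 8.4e-05. The intronic peak near Nrip1, which encodes a corepressor of nuclear hormone receptors, rose from 31.3, 28.8 and 51.3 to 113, 109 and 109.8, with a log2 fold change of 1.54 (SE 0.30) and an adjusted p of 5.2e-04. N+P C5 libraries lay within a narrow band in Nrip1, while Naive replicate 3 was the highest of its group. The promoter peak of Zdhhc2, a palmitoyltransferase gene, rose from 45.6, 34.4 and 51.9 to 112, 87.4 and 91.9, with a log2 fold change of 1.14 (SE 0.29) and an adjusted p of 0.0106.

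Further opening peaks of the first 14 lay near Phc3, E130308A19Rik, Srsf7, Lpar3, Kif21b and Ppp2r5c. Phc3 encodes a Polycomb protein, Srsf7 a splicing factor, Lpar3 a receptor of lysophosphatidic acid and Ppp2r5c a subunit of the phosphatase PP2A. Their log2 fold changes ran from 1.39 at Ppp2r5c to 2.38 at E130308A19Rik, with adjusted p from 0.0076 to 0.0184. The Ppp2r5c peak was 1 of 4 opening peaks within 15060 bp on chromosome 12 (110341604 to 110356663), which held no other peak. The log2 fold changes of these 4 ran from 1.39 to 1.96, and 1 of them, at chr12:110352524-110353036, missed the threshold without Naive replicate 3 (adjusted p 0.102). Neighbouring peaks are not independent sites. A pair of opening peaks also lay within 3937 bp in introns near Rtkn2 on chromosome 10.

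**Figure D2:**
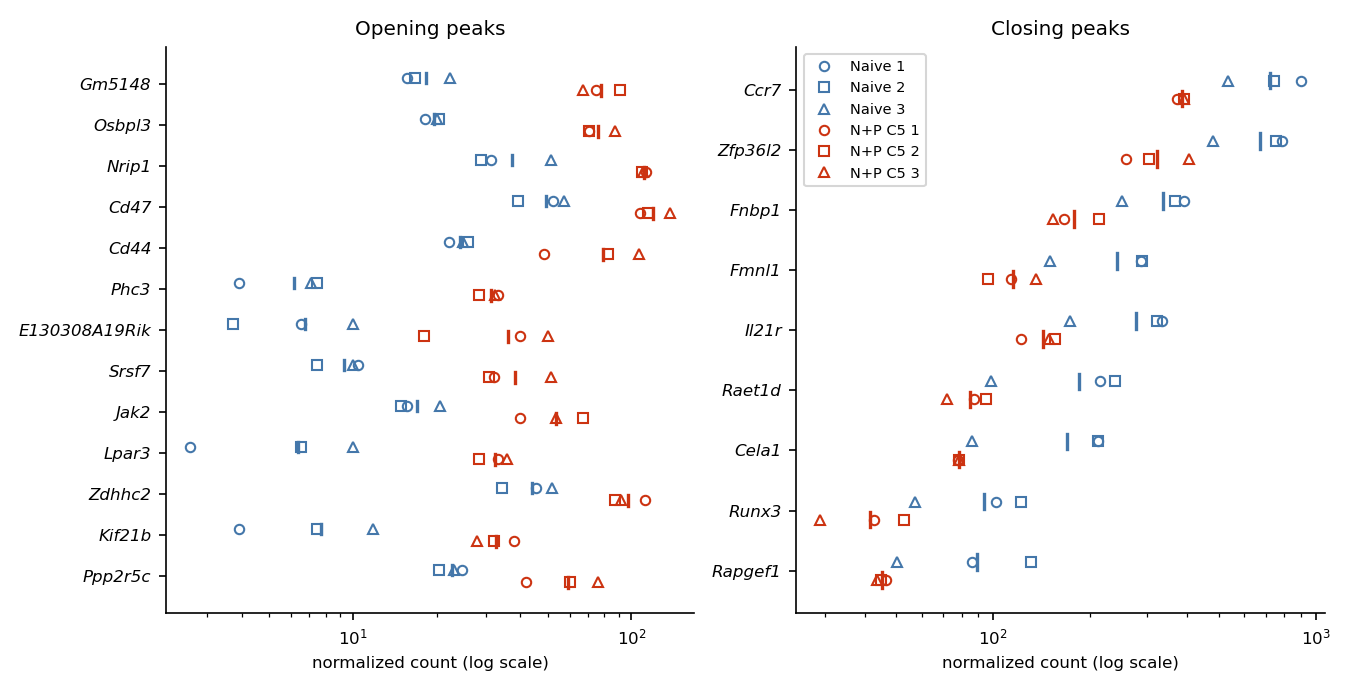
Normalized count (log scale) of 13 of the 14 opening peaks and the 9 closing peaks with the smallest adjusted p, by nearest gene. Each symbol is 1 library of Naive (blue) or N+P C5 (red), and the short bar is the group mean; in each peak shown the groups stand apart, and Naive replicate 3 (blue triangle) lies nearest to N+P C5 in the closing peaks.

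Closing peaks were more open than the opening ones, with a median normalized count of 178.8, and 4 of the 9 were in the authors' Naive list, 1 of them also in the N+P C5 list. The intergenic Ccr7 peak at chr11:99058772-99059508, 13229 bp from the start, fell from 898, 741 and 533 normalized counts in Naive to 372, 389.7 and 391 in N+P C5. Its log2 fold change was -0.91 (SE 0.16) with an adjusted p of 8.4e-05. The Il21r peak at chr7:125196134-125196651 fell from 334, 322 and 173 to 122, 156 and 149, with a log2 fold change of -0.95 (SE 0.23) and an adjusted p of 0.00755. Near Zfp36l2, which encodes an mRNA decay factor that restrains T cell cytokines, the peak at chr17:84580033-84580900 fell from 787, 752 and 479 to 259, 303 and 403, with a log2 fold change of -1.06 (SE 0.19) and an adjusted p of 8.4e-05. The peak near Runx3, a factor of the CD8 lineage, at chr4:134800736-134801209 fell from 102, 122 and 57.2 to 42.7, 52.7 and 29.1, with a log2 fold change of -1.17 (SE 0.35) and an adjusted p of 0.0277. In each of these 4, Naive replicate 3 was the lowest Naive library, between replicates 1 and 2 and the N+P C5 libraries.

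The other closing peaks lay near Fnbp1 and Fmnl1, both of which encode proteins of the actin cytoskeleton, Rapgef1, a guanine nucleotide exchange factor of Rap1, Raet1d, an NKG2D ligand, and Cela1, an elastase. Their log2 fold changes ran from -1.11 at Raet1d to -0.91 at Fnbp1, with adjusted p from 0.00298 to 0.0675. The peak near Cela1 held 211, 211 and 86.1 in Naive and 77.8, 78.4 and 78.4 in N+P C5, so that Naive replicate 3 lay much closer to N+P C5 than to the other Naive libraries. All 9 closing peaks and 51 of the 56 opening peaks were still called without Naive replicate 3. Naive and N+P C5 stood apart in 54 of the 56 opening peaks and in all 9 closing peaks, and in 26.2% of all peaks, a count that the calls themselves favour.

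Position on a chromosome moved with the comparison. The median log2 fold change was -0.23 over the 813 peaks of chromosome 11 and -0.16 over the 331 of chromosome 19, against 0.11 over the 615 of chromosome 13. Of the chromosome 11 peaks, 144 were lower and 10 higher at an adjusted p under 0.1. The median of chromosome 11 was -0.33 without Naive replicate 3. The closing peaks near Ccr7 and Fmnl1 are on chromosome 11. After the median of each 10 Mb stretch was removed per library, 920 peaks passed, 381 higher and 539 lower, with 52 opening and 7 closing peaks. Of the original calls, 44 opening and 2 closing peaks were still called, and the Ccr7 peak had a log2 fold change of -0.57. The part of this regional shift in the results was not tested further.

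**Figure D3:**
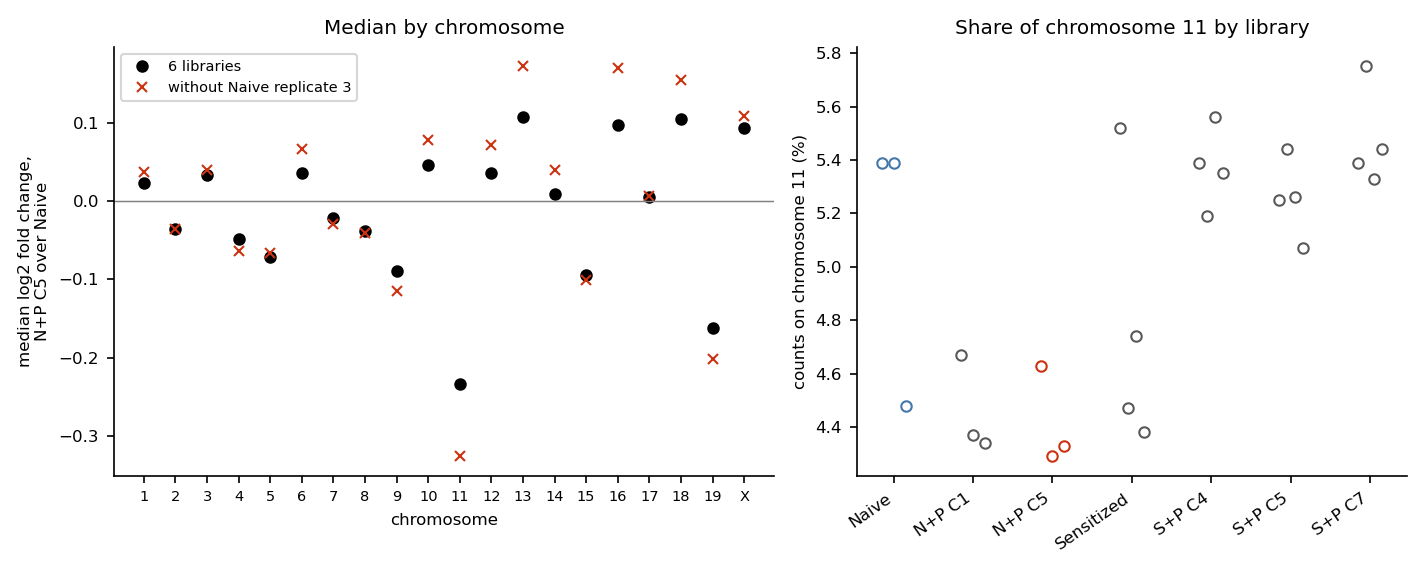
Left, median log2 fold change of N+P C5 over Naive by chromosome, with all 6 libraries (black) and without Naive replicate 3 (red crosses), for chromosomes with at least 100 peaks. Right, share of each library's counts on chromosome 11 in percent, 1 circle per library, where Naive replicates 1 and 2 lie at 5.39% and Naive replicate 3 and the N+P C5 libraries between 4.29% and 4.63%.

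Genes of the naive and stem-like state had many more lower than higher peaks. Of 128 peaks at 16 genes, 32 fell and 1 rose, with a median log2 fold change of -0.20 against -0.01 over all peaks. The share that passed was 25.8%, against 12.2% over all peaks. Since lower peaks in general lay outside promoters, the fitting background is 9.7% lower among the 5857 peaks outside promoters, where 31 of the list's 115 were lower (27.0%). Peaks fell at 12 of the 16 genes. With Naive replicate 3 left out, 61 fell and 4 rose, that is 47.7% lower against 18.6% of all peaks in that fit. Without Naive replicate 1 or Naive replicate 2, 8 peaks of the whole series passed in each fit. Neither this list nor those below could hold more in those fits. Off chromosome 11, 25 of 116 fell (21.6%, against 5.68% of all peaks) and 1 rose. With 10 Mb offsets 28 of 128 fell (21.9%, against 3.98%) and 2 rose. In the fit to all 25 libraries 3 of the 33 peaks that kept an adjusted p fell (9.09%, against 1.26% of all peaks) and 1 rose.

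Beside the Ccr7 peak above, the naive and stem-like list named Satb1, which encodes a chromatin organizer, and Foxp1, which keeps T cells quiescent. The Satb1 peak at chr17:52475035-52476293, 335040 bp from the start, fell from 1329.7, 1348 and 1104 to 664, 833 and 897, a log2 fold change of -0.66 (SE 0.13) with an adjusted p of 5.2e-04. All 3 N+P C5 libraries lay under the lowest Naive library. A second Satb1 peak, at chr17:52210850-52211399, fell from 551, 435 and 412 to 268, 302 and 329, with a log2 fold change of -0.63 (SE 0.16) and an adjusted p of 0.00755. Of the 12 Satb1 peaks, 2 were lower and none higher. In a Foxp1 intron, the peak at chr6:99327329-99327960 fell from 539.7, 441 and 325 to 229.6, 318 and 298, with a log2 fold change of -0.62 (SE 0.19) and an adjusted p of 0.0292, and 5 of 15 Foxp1 peaks were lower. N+P C5 against N+P C1 had log2 fold changes of 0.16 at the Ccr7 peak, -0.13 and -0.08 at these Satb1 peaks and -0.09 at this Foxp1 peak. None of them passed there (adjusted p 0.99978 each). No peak of the series was lower in N+P C5 than in N+P C1 past the threshold. Ccr7 had 4 lower peaks of 6, Tcf7, the factor of stem-like T cells, 3 of 6, Bach2, a repressor of effector genes, 5 of 13, and Ets1 6 of 22. Klf2, Id3 and Slamf6 had no peak past the threshold, although 1 of the 4 Klf2 peaks passed without Naive replicate 3, and the one higher peak was an intronic peak of Bcl6 (log2 fold change 0.38, SE 0.11, adjusted p 0.0238).

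Cytokine and TGF-beta signaling genes also had more lower than higher peaks. Of 121 peaks at 28 genes, 27 fell and 3 rose, with a median log2 fold change of -0.19 and 24.8% past the test against 12.2% over all peaks. Outside promoters 25 of 102 were lower (24.5%), against 9.7% of all such peaks. Without Naive replicate 3, 50 fell (41.3%, against 18.6% of all peaks) and 7 rose, and with 10 Mb offsets 17 fell (14.0%, against 3.98%) and 2 rose. In the fit to all 25 libraries 1 of the 29 peaks that kept an adjusted p passed (3.45%, against 7.87% of all peaks). It fell, and 1.26% of all peaks were lower in that fit. Tgfbr2, the ligand-binding receptor of TGF-beta, had 8 lower peaks of 13. The largest of them, at chr9:116092808-116093323, fell from 382, 383 and 209 to 164, 172 and 189, a log2 fold change of -0.88 (SE 0.22) with an adjusted p of 0.00744. Without Naive replicate 3 this peak was called as closing (log2 fold change -1.13, adjusted p 4.5e-09). In N+P C5 against N+P C1 its log2 fold change was 0.06 with an adjusted p of 0.99978. Smad7, the inhibitory Smad, had 6 lower of 16, and Il21r 4 of 8. All 3 peaks of Stat5b, the factor downstream of IL-2 and IL-7, were lower, as was the single Stat5a peak, and these lie on chromosome 11. The Stat5b peak with the highest mean held 754, 667 and 497 in Naive and 498, 401 and 481 in N+P C5, with a log2 fold change of -0.47 (SE 0.16) and an adjusted p of 0.0489. There N+P C5 replicate 1 lay above Naive replicate 3. With 10 Mb offsets its log2 fold change was -0.15 with an adjusted p of 0.537. Of the other Stat5b peaks and that of Stat5a, only the Stat5b peak at chr11:100736416-100737242 then passed (adjusted p 0.084). The 3 higher peaks of the list were those of Jak2 and Stat4 and an intergenic Il6st peak (log2 fold change 0.77, SE 0.30, adjusted p 0.0958).

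**Figure D4:**
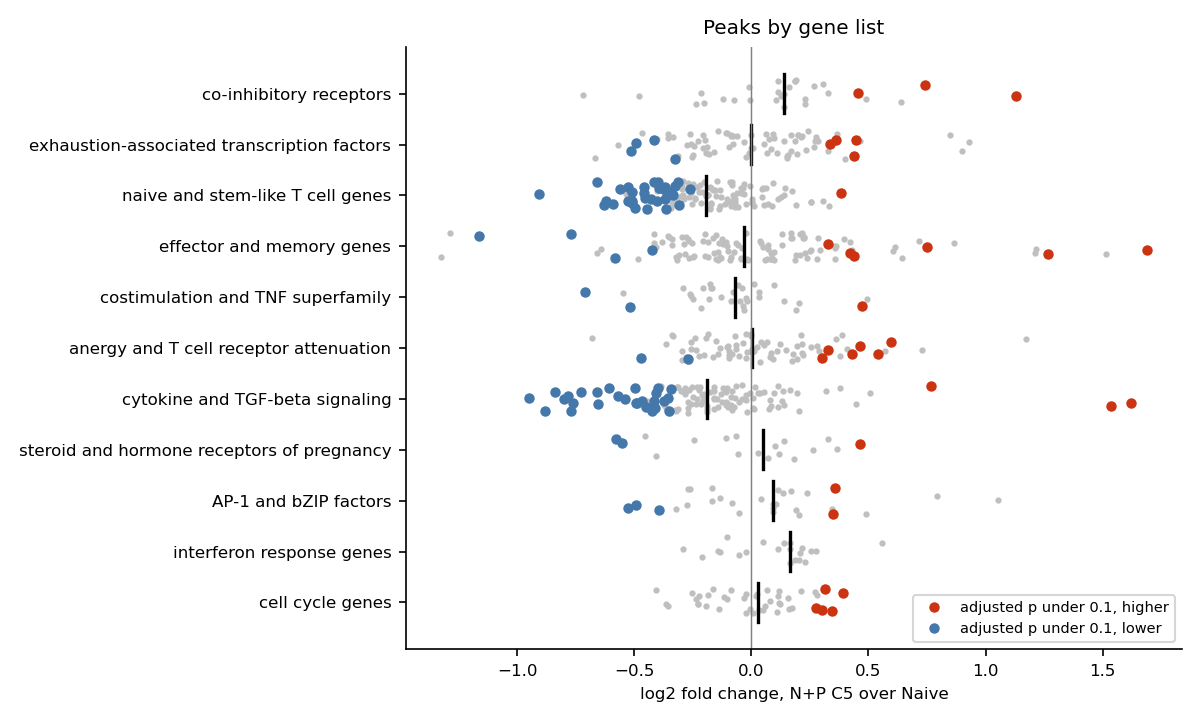
Log2 fold change of N+P C5 over Naive for each peak near a gene of 11 lists (1 row per list), with peaks past an adjusted p of 0.1 in red (higher) or blue (lower), others in grey, and the list's median as a black bar. Lower peaks gather in the naive and stem-like list and in the cytokine and TGF-beta list, 32 and 27 of them.

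Co-inhibitory receptor genes had 29 peaks at 9 genes, of which 3 rose and none fell, 10.3% past the test against 12.2% over all peaks. The median log2 fold change was 0.14. In the fit without Naive replicate 3, in which 36.9% of all peaks passed, 24.1% of the list did, with 7 higher and none lower. With 10 Mb offsets 1 rose and 1 fell (6.9%, against 6.8% of all peaks), with a median of 0.01. The Nt5e peaks that had risen then had adjusted p of 0.351 and 0.244. The 3 that rose in the fit to the 6 libraries were the Pdcd1 peak above and 2 peaks of Nt5e, both genes of the sort. The Nt5e promoter peak at chr9:88209362-88210170 held 327, 284 and 373 in Naive and 411, 446 and 499.6 in N+P C5, which gave a log2 fold change of 0.46 (SE 0.15) with an adjusted p of 0.0446. The intronic one at chr9:88214398-88215019 held 73.0, 52.0 and 87.9 in Naive and 105, 105 and 148 in N+P C5, with a log2 fold change of 0.74 (SE 0.27) and an adjusted p of 0.0719. Without Naive replicate 3 it was called as opening (log2 fold change 0.95, adjusted p 0.00816). The peak with the highest mean of each gene was not past the threshold, in the fit to all 6 libraries, for Pdcd1 (log2 fold change 0.13, SE 0.17, adjusted p 0.684), Nt5e (log2 fold change 0.23, SE 0.13, adjusted p 0.249), Ctla4 (log2 fold change -0.24, SE 0.14, adjusted p 0.298) or Tigit (log2 fold change -0.01, SE 0.11, adjusted p 0.982). The Pdcd1 peak passed without Naive replicate 3, its highest Naive library, with an adjusted p of 0.0222 and a log2 fold change of 0.38. The Ctla4 peak passed as lower with 10 Mb offsets (adjusted p 0.0858). No peak was nearest to Lag3 or Tnfsf4. Of the 5 Pdcd1 peaks, log2 fold changes ran from 0.13 to 1.13, of the 3 Ctla4 peaks from -0.24 to 0.12, and of the 5 Tigit peaks from -0.01 to 0.19.

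Transcription factors linked to exhaustion had 78 peaks at 16 genes, of which 4 rose and 4 fell, 10.3% past the test against 12.2% over all peaks, with a median log2 fold change of -0.0014. The 4 that rose were promoter peaks. That of Tox, the factor that sustains exhausted T cells, at chr4:6988771-6991751 held 1068, 894 and 1234 in Naive and 1301, 1358 and 1385 in N+P C5, which gave a log2 fold change of 0.34 (SE 0.12) with an adjusted p of 0.062. The others were Bhlhe40 (log2 fold change 0.45, SE 0.13), Ikzf2, which encodes Helios (log2 fold change 0.44, SE 0.12), and Maf (log2 fold change 0.36, SE 0.13), with adjusted p of 0.0254, 0.0185 and 0.0691. On the scale of all 25 libraries, the Tox peak held 1438 to 1492 in N+P C1, against 1379 to 1486 in N+P C5. Group means were 1182 in N+P C1 and 1110 in N+P C5 at Ikzf2, and 1177 and 1337 at Bhlhe40. The Tox, Ikzf2 and Bhlhe40 peaks did not pass in N+P C5 against N+P C1 (adjusted p 0.99978 each). The lower peaks were 2 of Irf4 and 1 each of Nfatc1 and Eomes, the largest an Irf4 peak that fell from 701, 663 and 613 to 449, 422 and 509.7 (log2 fold change -0.52, SE 0.13, adjusted p 0.00744). In the fit without Naive replicate 3, 13 of the list rose and 10 fell, 29.5% against 36.9% of all peaks. The 8 peaks of Tox ran from -0.08 to 0.93, the 6 of Maf from -0.67 to 0.36 and the 7 of Nfatc1 from -0.50 to 0.29. With 10 Mb offsets 1 of the list rose and 4 fell (6.41%, against 6.8% of all peaks). The promoter peaks of Tox, Bhlhe40 and Maf then had adjusted p of 0.242, 0.124 and 0.115. The strongest peaks of Maf (log2 fold change -0.11, SE 0.12), Nfatc1 (log2 fold change -0.20, SE 0.10), Nfat5 (log2 fold change 0.15, SE 0.16) and Satb1 (log2 fold change -0.13, SE 0.11) had adjusted p of 0.6, 0.179, 0.58 and 0.491. That of Nfatc1 passed as lower without Naive replicate 3 (adjusted p 0.0361) and with 10 Mb offsets (0.0451).

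Effector and memory genes had 116 peaks at 28 genes, of which 6 rose and 4 fell, 8.62% past the test against 12.2% over all peaks. The 6 were 3 peaks near Cd47 and 1 each near Cd44, Itgb1, an integrin chain, and Id2, an inhibitor of E proteins. The 4 were 3 peaks near Runx3 and 1 at the Il2ra promoter. No peak of Gzmb, Prf1, Ifng, Tbx21 or Zeb2, genes of cytotoxicity and of effector differentiation, passed in the fit to the 6 libraries. The 4 Tbx21 peaks had log2 fold changes from -0.20 to 1.22, with a median of 1.04, and adjusted p of 0.104 and more. No difference was detected there, which does not show that there is none. Without Naive replicate 3, 2 of the 4 Prf1 peaks passed, and in the whole list 17 rose and 14 fell, 26.7% against 36.9% of all peaks. With 10 Mb offsets 4 of the list rose and 8 fell (10.3%, against 6.8% of all peaks). Of genes that attenuate the T cell receptor signal (76 peaks at 19 genes), 6 rose and 2 fell, 10.5% past the test. The counts were 20 and 8 without Naive replicate 3 (36.8%, against 36.9% of all peaks), and 2 and 5 with 10 Mb offsets (9.21%, against 6.8%). The 6 that rose were 4 of the 21 peaks of Cblb, an E3 ligase of anergy, and 2 of the 9 of Dusp6, a phosphatase of ERK. The Dusp6 peak at chr10:99103809-99105312 held 344, 277 and 467 in Naive and 587, 529.8 and 534 in N+P C5, which gave a log2 fold change of 0.60 (SE 0.17) with an adjusted p of 0.0213. The Cblb peak at chr16:51874967-51877344 held 572, 427 and 667 in Naive and 745, 867 and 817 in N+P C5, with a log2 fold change of 0.54 (SE 0.15) and an adjusted p of 0.0177, or 0.14 with 10 Mb offsets. On the scale of all 25 libraries, the mean at this Dusp6 peak was 598 in N+P C1 and 587 in N+P C5. At this Cblb peak the means were 812 and 863. Neither peak passed in N+P C5 against N+P C1.

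In 4 smaller lists between 9.38% and 16.7% of the peaks passed, against 12.2% of all peaks. Cell cycle genes had 5 higher and no lower of 44 peaks, among them the Ccnd2 promoter (log2 fold change 0.39, SE 0.10, adjusted p 0.011), and costimulation and TNF superfamily genes 1 higher and 2 lower of 32, led by Tnfrsf18, which encodes GITR (log2 fold change -0.71, SE 0.21, adjusted p 0.0259). Without Naive replicate 3 the Tnfrsf18 peak was called as closing (log2 fold change -0.92, adjusted p 1.3e-05). AP-1 and bZIP genes had 2 higher and 3 lower of 30, and steroid and hormone receptor genes 1 higher and 2 lower of 18, the higher one a peak of the glucocorticoid-induced gene Tsc22d3 (log2 fold change 0.47, SE 0.14, adjusted p 0.0263). Cytosolic ribosomal protein genes had 4 higher and 10 lower of 91 (15.4%, against 12.2% of all peaks). The balance moved with the processing. With 10 Mb offsets the steroid list had 2 higher and none lower and the ribosomal list 3 of each, and without Naive replicate 3 the cell cycle list had 7 higher and 6 lower. In that fit there were 3 higher and 8 lower in the costimulation list, 7 and 6 in the AP-1 list, 3 and 6 in the steroid list, and 11 and 26 in the ribosomal list. The shares that passed were 29.5% of the cell cycle list, 34.4% of the costimulation list, 40.7% of the ribosomal list, 43.3% of the AP-1 list and 9 of 18 in the steroid list, against 36.9% of all peaks. In the 6 libraries none of the 21 peaks of interferon response genes passed by DESeq2 or by edgeR, with 2 at an unadjusted p under 0.05 and a median log2 fold change of 0.16. Without Naive replicate 3, 7 of them rose and 2 fell (42.9%), and with 10 Mb offsets 1 rose (4.76%, against 6.8% of all peaks).

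Motif matches in the central 300 bases were counted as a description. AP-1 letters were in 21 of the 56 opening windows (37.5%), against 15.8% of all windows outside promoters and 30.0% of those with a mean under 100. NFAT letters were in 24 (42.9%), against 25.4% and 29.6%, and RUNX letters in 7 (12.5%), against 20.1% and 22.8%. Of the 9 closing windows, 6 held AP-1 letters. Among the lower peaks outside promoters, 21.7% of 568 held AP-1 letters and 9.68% TCF/LEF letters, against 15.8% and 8.86% of all such windows. Promoter windows of the higher peaks held KLF/SP letters in 38.4% of 537, against 45.0% of all promoter windows.

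Levels of the called peaks were also read in the other groups. On the scale of all 25 libraries, the median over the 56 opening peaks was 13.8 to 17.0 normalized counts in Naive, 19.9 to 21.3 in N+P C1, 42.3 to 52.3 in N+P C5, 64.5 to 202.2 in Sensitized and 345.5 to 562.5 in S+P C5. In all 56 opening peaks each S+P C5 library lay above each N+P C5 library, as in 98.9% of the 784 peaks with a mean under 100 and 30.9% of all peaks. Each Sensitized library did so in 31 of the 56 (55.4%), against 78.4% of the 784 and 14.4% of all peaks. A peak in neither the Naive nor the N+P C5 list is in the table through the list of another group, which favours high levels there, so nothing is read from this order. The order of Naive and N+P C5 was set by the choice of the peaks. The same choice favours N+P C5 over N+P C1, so nothing is read from that order either. The Cd47 peak, for instance, held 71.8 to 81.9 in N+P C1, 389 to 1390.3 in Sensitized and 1047 to 1537 in S+P C5. Over the 9 closing peaks the median was 102.8 to 145.5 in N+P C5 and 92.9 to 150.7 in N+P C1, so these groups overlapped, and 160.9 to 306.8 in Naive, with Naive replicate 3 the lowest. It was 123.8 to 246.9 in Sensitized and 129.1 to 241.8 in S+P C5, which overlapped both N+P C5 and Naive.

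**Figure D5:**
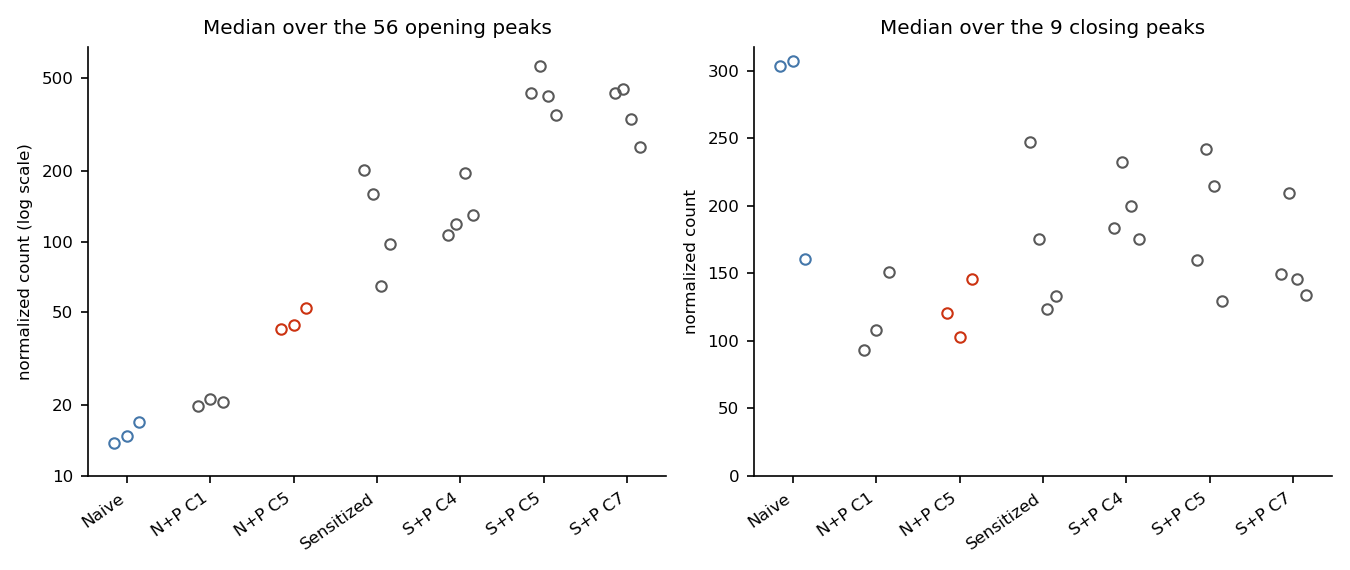
Median normalized count over the 56 opening peaks (left, log scale) and the 9 closing peaks (right) in each of the 25 libraries, 1 circle per library, by group. For opening peaks N+P C5 (red) lies between N+P C1 (19.9 to 21.3) and Sensitized (64.5 to 202.2), and S+P C5 reaches 345.5 to 562.5. The choice of the peaks favours this order, so nothing is read from it.

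A test that does not use Naive set N+P C5 against N+P C1, the PD1- cells after pregnancy. In the fit to these 6 libraries, 13 peaks passed an adjusted p under 0.1 (0.0961%), all higher in N+P C5, and 9 of them were called (0.0665%). With replicate numbers as a block, 3 passed and 2 were called. Same-numbered libraries of these groups deviated together, and the fit with the block is the one that takes up this pairing. edgeR on the same libraries called none, with 787 peaks at an unadjusted p under 0.05, against 538 in DESeq2. The exonic Nt5e peak at chr9:88211024-88212786 held 497, 564 and 631 normalized counts (scale of all 25 libraries) in N+P C1 and 708 to 951 in N+P C5, which gave a log2 fold change of 0.52 (SE 0.13) with an adjusted p of 0.0581, or 0.0204 with the block. It lies in the gene of the sort marker CD73. The call with the smallest adjusted p was intergenic at chr3:21180067-21181018, 759190 bp from Agtr1b, with 73.0, 76.3 and 71.6 in N+P C1 and 147 to 197 in N+P C5, which gave a log2 fold change of 1.23 (SE 0.23) and an adjusted p of 0.00209, or 0.0204 with the block. Against Naive, which ranged over 92.3 to 189, its log2 fold change was 0.40 with an adjusted p of 0.33, and the groups overlapped. The other call that held with the block was an intronic Adh4 peak, Adh4 being an alcohol dehydrogenase gene, at chr3:138124829-138126730. It held 70.8, 77.4 and 52.8 in N+P C1 and 149 to 182 in N+P C5, with a log2 fold change of 1.23 (SE 0.25) and an adjusted p of 0.00442, or 0.0505 with the block. Against Naive its log2 fold change was 0.76 with an adjusted p of 0.0254.

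Among the 13 were the Gm5148, Osbpl3 and Phactr2 peaks, which also opened against Naive. With the block the Osbpl3 peak had an adjusted p of 0.211 and the Phactr2 peak 0.242, against 0.0474 and 0.071 without it. Against Naive the Phactr2 peak had an adjusted p of 0.0899, or 0.111 without Naive replicate 3. The Gm5148 peak held 26.5, 33.6 and 26.4 in N+P C1 and 72.1 to 97.3 in N+P C5, with an adjusted p of 0.0404, or 0.171 with the block. Near Cxcr3, which encodes a chemokine receptor of effector T cells, the peak at chrX:100780586-100781551 held 63.0, 68.4 and 71.6 in N+P C1 and 124 to 149 in N+P C5, with a log2 fold change of 1.00 (SE 0.25) and an adjusted p of 0.071, or 0.428 with the block. Naive held 93.7 to 126 there, and N+P C5 against Naive had a log2 fold change of 0.23 with an adjusted p of 0.556. An intronic Nfatc1 peak held 126, 124 and 102 in N+P C1 and 192 to 230.3 in N+P C5, with a log2 fold change of 0.84 (SE 0.20) and an adjusted p of 0.0513, or 0.188 with the block. Naive held 197 to 247 at this peak, overlapping N+P C5 and above every N+P C1 value, and the log2 fold change against Naive was -0.09 with an adjusted p of 0.784. Leaving out N+P C5 replicate 2 or 3 left no call in N+P C5 against N+P C1.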

How the data were processed

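The authors trimmed reads with Cutadapt 3.4, aligned them to GRCm39 with Bowtie2 2.2.9, removed duplicates with Picard 2.21.8, called peaks per library with Genrich 0.6.1 and kept those that recurred in a group with ChIP-R. The deposited table holds raw counts of 13527 merged peaks in 25 libraries. Each peak list deposited for a group carries a ChIP-R score pooled over its libraries; here the Naive and N+P C5 lists served only for membership.

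Annotation used GENCODE vM39, with promoters within 1000 bp of a protein-coding transcript start. DESeq2 1.42.0 (Wald test, median-of-ratios, independent filter, Benjamini-Hochberg, R 4.3.3) was fitted to the 6 libraries; calls took the study's thresholds, 0.1 for the adjusted p and 0.9 for the log2 fold change in either direction. Normalized counts are counts over size factors. Fits were tested on simulated data. Named were 14 opening and 9 closing peaks of smallest adjusted p without overlap, the strongest peak of 13 study genes, and up to 4 passing peaks of a list by fold; others were named after their values were seen, and a few items under the rule are not reported here. The comparison, the lists and the choice of the 6-library fit were made with earlier results of these data known. Same-numbered N+P C5 and N+P C1 libraries deviated together (correlations of 0.40, 0.11 and 0.29), which pairs them. Alternatives were edgeR 4.0.16, other scalings, filters and left-out libraries. Intervals cover counting error only.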

Additional observations from a re-analysis of the deposited data

How the results depend on the processing

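In N+P C5 against Naive, 65 peaks were called and 1646 passed the adjusted p. TMM factors, total counts, GC offsets, no independent filter and edgeR on the same libraries kept both counts within 1.5 times. Calls were 1 with all 25 libraries, 24 there without the independent filter, 157 there without Naive replicate 3, 0 in edgeR on all 25 (2260 peaks at an unadjusted p under 0.05, 2361 in DESeq2), 2 with loess offsets, 41 with loess offsets and no filter, 150 with loess offsets without Naive replicate 3, and 6 at a mean of at least 100 counts. With loess offsets, and without N+P C5 replicate 1, the filter left all 56 opening peaks with no adjusted p, and 55 in the fit to 25 libraries. Peaks past the adjusted p were then 301, 189, 2916 and 1 for the fits to 25 libraries in that order, 4762 with loess offsets without Naive replicate 3, 920 with 10 Mb offsets and 785 at an adjusted p under 0.05. Leaving out 1 library gave 2 to 205 calls and 8 to 4996 passing peaks; without N+P C5 replicate 1 and with no filter, 26 and 235. The GC, 10 Mb and filter-off alternatives and loess without Naive replicate 3 were chosen after seeing the data. For each change the cause was not tested, except that fewer peaks are tested at a mean of at least 100.

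The replicate block gave 48 calls and 1124 passing peaks in N+P C5 against Naive. Same-numbered libraries there correlated at 0.079, -0.0070 and 0.21, so the numbers do not pair them, and not every library correlated best with its own number.

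In N+P C5 against N+P C1, 9 peaks were called. Calls were 2 with the replicate block and at a mean of at least 100 counts, and 0 with all 25 libraries (308 peaks at an unadjusted p under 0.05), in edgeR on all 25 (260) or on the 6 (787) and with loess offsets (346). Leaving out 1 library gave 0 to 9.

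Named peaks kept their direction in N+P C5 against Naive except in 9 refits. The strongest Tigit peak turned to 0.0018 with all 25 libraries, with or without the filter, 0.042 there without Naive replicate 3, 0.0001 at a mean of at least 100 counts, 0.090 without N+P C5 replicate 1, with or without the filter, and 0.031 without Naive replicate 3; leaving out 1 library gave -0.079 to 0.090. The strongest Pdcd1 peak turned to -0.019 without Naive replicate 2 (-0.019 to 0.38 over the left-out libraries) and the strongest Nt5e peak to -0.0042 with 10 Mb offsets. None of these had passed the test with all 6 libraries.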
